A study of Mus musculus with 12 samples.

Results

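Il17rb, Il4, Il13, Plac8 and Izumo1r are 5 genes associated with NKT2 cells, the interleukin 4-producing subset of invariant natural killer T (iNKT) cells, and they are described here across early thymic iNKT development. They were given as a list of gene symbols and matched to the Ensembl IDs of the deposited tables. No threshold on these values was used to choose them, but earlier results of these data were known at the choice. All 5 had an ID among the 48672 in each table, and all 5 passed the filter on low counts with 15704 genes in all. iNKT cells are T cells whose nearly uniform receptor recognises lipids, and the question behind the series is how the transcriptional repressor BCL6 acts in their early development. RNA was sequenced from sorted thymocytes of 4 to 5 week old C57Bl/6J mice, either WT or CDCre;Bcl6F/F, the latter called Bcl6KO. Cells that bound the tetramer and carried TCRb were sorted as stage 0 (CD24+ CD44-) or as stage 1 (CD24- CD44-), with thymi of 4 to 7 mice pooled and no treatment in any group. This gave 4 groups of 3 libraries, both stages of WT and both of Bcl6KO. The labels name the Cre transgene only as CDCre, and do not say whether WT mice carried Cre or floxed alleles. Nor do they state if libraries of 1 group derive from different pools of mice, so the p-values rest on a spread between libraries that may in part be technical. No surface marker of NKT2 cells was part of either sort, so each value is an average over all iNKT cells of a stage.

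NKT2 cells are known for producing interleukin 4 in the thymus at steady state, where the cytokine acts on neighbouring thymocytes. Interleukin 4 and interleukin 13 are made from neighbouring genes in a cluster with Il5, and the factors GATA3, MAF, IRF4 and the NFAT proteins are known to act at that cluster. Both cytokines signal through the IL-4 receptor alpha chain to the transcription factor STAT6. Il17rb encodes a chain that pairs with IL-17RA to form the receptor for interleukin 25, a cytokine that drives type 2 responses. Plac8 encodes a small cysteine-rich protein, and Izumo1r encodes folate receptor 4, known on several T cell populations and, as JUNO, on the egg.

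On the mouse build GRCm38, Il17rb (ENSMUSG00000015966) lies on chromosome 14 from 29996135 to 30008896. Il4 (ENSMUSG00000000869) lies on chromosome 11 from 53602982 to 53618669 and Il13 (ENSMUSG00000020383) from 53631324 to 53634702, 12.7 kb apart. Plac8 (ENSMUSG00000029322) lies on chromosome 5 from 100553725 to 100572245 and Izumo1r (ENSMUSG00000031933) on chromosome 9 from 14885814 to 14903949. All are protein-coding and on the minus strand. Of the exonic bases of Il17rb, 3.8% were shared with Actr8, a gene on the opposite strand, and those of the other genes were shared with no other gene. Promoter windows of 300 bases, from 250 before to 50 after the RefSeq start site, are shown for the interleukin 25 receptor gene and the cytokine genes, because these are the members whose levels passed the test between stages in Bcl6KO cells. They come from RefSeq on GRCm38.p6, are written 5′ to 3′ on the minus strand, and span chr14:30008847-30009146, chr11:53618616-53618915 and chr11:53634653-53634952. Capitals mark GATAA, letters found in sites of GATA factors, and TTC followed by GAA 4 bases later, the spacing known for STAT6.

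Il17rb: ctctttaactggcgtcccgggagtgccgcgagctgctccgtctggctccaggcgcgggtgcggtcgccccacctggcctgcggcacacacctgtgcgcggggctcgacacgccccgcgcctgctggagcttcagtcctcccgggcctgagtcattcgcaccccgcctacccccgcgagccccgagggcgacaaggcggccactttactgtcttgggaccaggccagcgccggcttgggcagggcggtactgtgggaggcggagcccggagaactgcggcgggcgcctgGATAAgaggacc

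Il4: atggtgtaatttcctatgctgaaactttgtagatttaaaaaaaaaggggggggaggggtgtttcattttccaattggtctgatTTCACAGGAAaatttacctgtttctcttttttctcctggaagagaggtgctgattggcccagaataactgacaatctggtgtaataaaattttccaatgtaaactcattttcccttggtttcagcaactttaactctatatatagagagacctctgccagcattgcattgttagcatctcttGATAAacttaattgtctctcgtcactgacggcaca

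Il13: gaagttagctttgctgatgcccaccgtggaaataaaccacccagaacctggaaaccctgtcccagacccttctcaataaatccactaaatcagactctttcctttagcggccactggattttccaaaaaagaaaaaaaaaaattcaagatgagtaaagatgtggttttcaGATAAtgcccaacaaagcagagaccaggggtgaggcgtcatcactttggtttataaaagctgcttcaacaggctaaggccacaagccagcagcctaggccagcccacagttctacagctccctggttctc

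These and 2 other motifs were searched on both strands in the windows of all 5 genes. TTC and GAA with 4 bases of any kind between them occurred only in the Il4 window, from -167 to -158 relative to the start site, and in 6.953% of 32851 mouse promoter windows of the same length. The related spacing with 3 bases between TTC and GAA occurred in none of the 5 windows and in 8.298% of all windows. GATAA was found at 1 place in the windows of Il17rb, Il4, Il13 and Izumo1r and not in that of Plac8, against 25.409% of all windows. GGAAA, the core letters of NFAT sites, occurred at 5 places in the Il4 window, at 4 in Il13, at 3 in Plac8 and at 1 in Izumo1r, and not in Il17rb. It was present in 61.341% of all windows, and 1 of its matches in Il4 overlapped the spaced TTC and GAA. The Il17rb window was 72.0% G and C, against 38.0% for Il4 and 46.0% for Il13. These matches describe the letters of the windows, and binding was not measured.

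The libraries held 4129919 to 8038717 counts each. Those of Bcl6KO stage 0 stood apart, with 14860 to 17734 genes detected against 18417 to 22028 in the other groups. In them Sp100, a nuclear body gene, took 10.8% to 23.9% of counts, against 0.0283% to 5.03% elsewhere. Levels are given as CPM, counts relative to a library size that edgeR scaled by its TMM method. Bcl6 was counted at 372.7, 216.6 and 275.2 CPM in WT stage 0, at 8.77, 4.15 and 8.62 CPM in WT stage 1, at 511, 657 and 652 CPM in Bcl6KO stage 0 and at 14.7, 56.1 and 25.2 CPM in Bcl6KO stage 1. These counts cover all exons of Bcl6, and which of them were floxed is a detail not given in the sources used here. They therefore check neither the deletion nor the labels. A list of T cell receptor, CD3 and other genes linked to iNKT cells summed to between 3542 and 6601 CPM in every library. Its most abundant genes, Trbc2 or Cd3e, are T cell genes in general, so the sum does not check that the cells were iNKT cells. Zbtb16, also on the list, stood at 166 ± 60.9 and 544 ± 120 CPM in WT stages 0 and 1. In Bcl6KO it stood at 50.5 ± 43.0 and 356 ± 73.9 CPM.

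Il17rb, Il4, Il13 and Plac8 had higher mean levels at stage 1 than at stage 0 in both genotypes. Averaged over the genotypes these 4 of 5 members were called higher, against 2.04% of the 15704 genes tested, and Il17rb rose 7.49-fold, Il4 9.40-fold, Il13 28.2-fold and Plac8 6.74-fold between the stages. Izumo1r did not pass the test in any comparison. Between Bcl6KO and WT edgeR called 0 of 5 members at stage 0, where it called 0.0191% of all genes, and 0 at stage 1, where it called 0%. At stage 0 the mean levels of Il17rb, Il4, Il13 and Plac8 were lower in Bcl6KO than in WT and that of Izumo1r was higher. DESeq2 called Il17rb, Il4 and Il13 lower there, in a comparison where it called 950 of the 15704 genes in either direction.

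**Figure D1:**
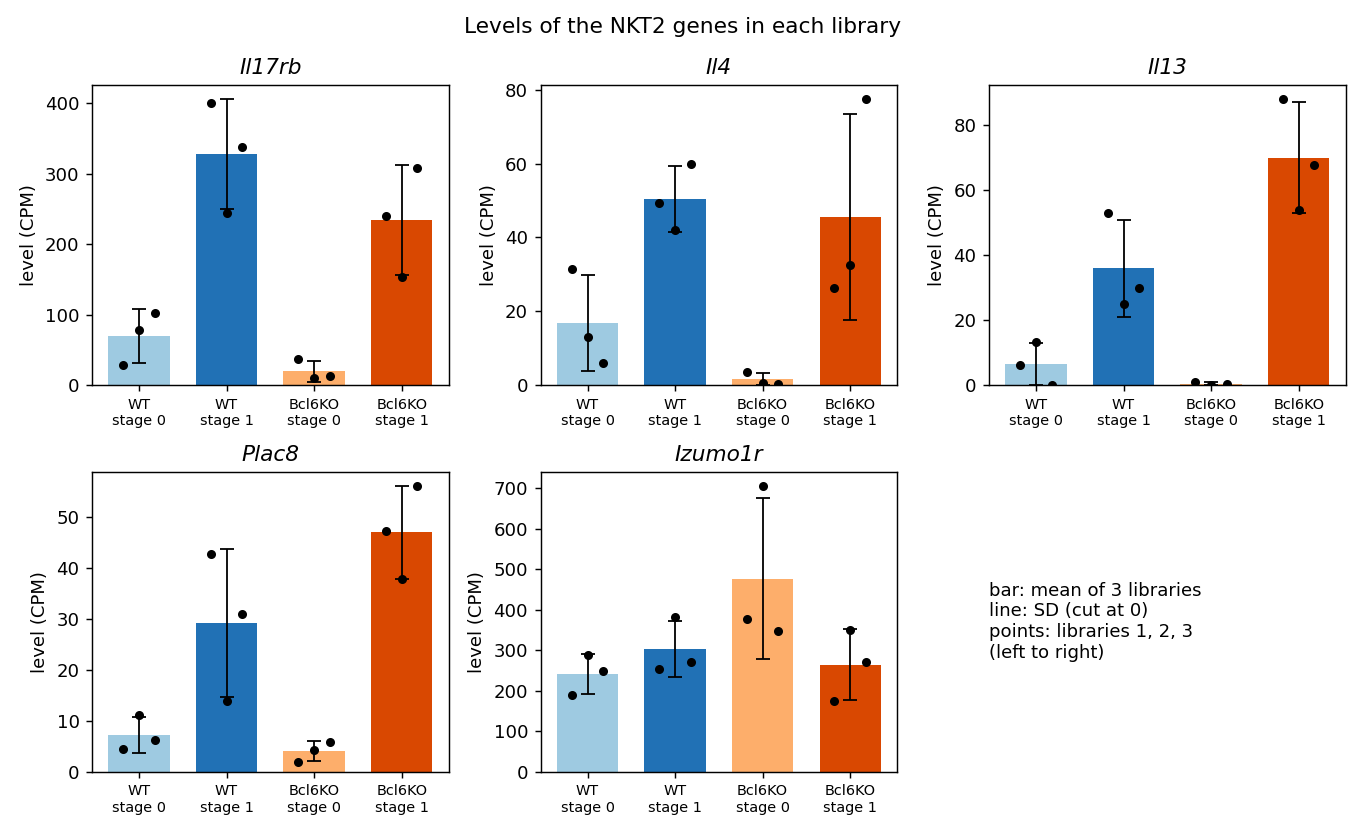
Level in CPM (vertical axes) of the 5 genes in WT and Bcl6KO cells at stage 0 and stage 1 (horizontal axes). Bars are means of 3 libraries, lines the SD (drawn down to 0 at most) and points libraries 1, 2 and 3 from left to right. The stage 1 bars of Il17rb, Il4, Il13 and Plac8 exceed both stage 0 bars, and Izumo1r is highest in Bcl6KO stage 0, at 477 ± 198 CPM.

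Il17rb, the receptor gene, was counted in WT stage 0 at 28.2, 78.6 and 102.5 CPM (69.8 ± 37.9, SD, n = 3) and in WT stage 1 at 400.5, 245 and 338 CPM (328 ± 78.2). In Bcl6KO it was counted at 36.5, 9.67 and 12.6 CPM at stage 0 (19.6 ± 14.7) and at 240.3, 154 and 309 CPM at stage 1 (234 ± 77.5). Every stage 1 library lay above every stage 0 library, in both genotypes, while the genotypes overlapped at each stage. The difference between stages was 2.23 on the log2 scale in WT (4.70-fold, SE 0.56, 95% interval 1.03 to 3.43), which did not pass the test (edgeR's quasi-likelihood F-test, Benjamini-Hochberg adjusted p = 0.139). In Bcl6KO it was 3.58 (11.9-fold, SE 0.59, 95% interval 2.31 to 4.85) and passed (edgeR, Benjamini-Hochberg adjusted p = 0.0218). The call in Bcl6KO ended with only the Bcl6KO libraries in the fit (edgeR adjusted p = 0.126), and without Bcl6KO stage 0 library 3 (3.34, edgeR adjusted p = 0.0653), Bcl6KO stage 1 library 1 (3.58, 0.0635) or Bcl6KO stage 1 library 3 (3.34, 0.0767). Without Bcl6KO stage 0 library 1, the highest of its group, the value was 4.41 (edgeR adjusted p = 0.0106). In a sorted population, fewer cells with a transcript and less of it per cell cannot be told apart, which holds for every level given here.

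Averaged over both genotypes, a comparison that uses all 12 libraries and so is not independent of the single ones, Il17rb rose by 2.90 on the log2 scale (SE 0.40, 95% interval 2.03 to 3.78, edgeR Benjamini-Hochberg adjusted p = 0.00209). It passed in all 18 alternatives of this comparison, with values from 2.70 to 3.32 when single libraries were left out. At stage 0 the Bcl6KO level was lower than the WT level by a log2 difference of -1.83 (SE 0.55, 95% interval -3.02 to -0.64, edgeR adjusted p = 0.188). DESeq2 gave -1.83 with a Benjamini-Hochberg adjusted p = 0.0306, and edgeR gave -2.65 with an adjusted p = 0.0494 without Bcl6KO stage 0 library 1. At stage 1 the difference was -0.48 (95% interval -1.63 to 0.66, edgeR adjusted p = 1). The genotype differences of the 2 stages were themselves compared, and differed by 1.35 (SE 0.76, edgeR adjusted p = 0.718). Il17ra, the gene of the partner chain, was counted at 297 ± 134 CPM in WT stage 0, 161 ± 94.5 in WT stage 1, 222 ± 50.8 in Bcl6KO stage 0 and 231 ± 122 in Bcl6KO stage 1 (SD, n = 3 each). Its groups spread widely, and its stage difference averaged over genotypes was -0.41 (edgeR adjusted p = 0.617). Of the other receptors of the family, Il17rc was at 0 in every library, and Il17rd and Il17re reached group means of at most 8.03 and 7.22 CPM.

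Il4, the gene of the cytokine that NKT2 cells are known to produce, was counted in WT stage 0 at 31.4, 13.0 and 6.10 CPM (16.8 ± 13.1, SD, n = 3) and in WT stage 1 at 49.4, 42.1 and 59.9 CPM (50.5 ± 8.96). In Bcl6KO stage 0 it was counted at 3.59, 0.569 and 0.394 CPM (1.52 ± 1.80), which rests on 18, 3 and 2 counts, and in Bcl6KO stage 1 at 26.4, 32.4 and 77.5 CPM (45.4 ± 27.9). The Bcl6KO stage 0 libraries were the lowest of the 12, and 2 of them lay at or below the level of 3 counts, the limit that a count of 0 allows (0.569 to 0.599 CPM in this group). WT stage 0 library 1 overlapped Bcl6KO stage 1. The stage difference was 1.58 in WT (2.99-fold, SE 0.85, 95% interval -0.25 to 3.41, edgeR Benjamini-Hochberg adjusted p = 0.671), and 2.37 without WT stage 0 library 1 (adjusted p = 0.748). Between Bcl6KO stages it was 4.88 (29.5-fold, SE 0.99, 95% interval 2.74 to 7.02) and passed narrowly (edgeR adjusted p = 0.0489). That call was lost with only the Bcl6KO libraries in the fit (edgeR adjusted p = 0.184), with the replicate number as a block (0.0763) and without any 1 of 9 libraries (0.0525 to 0.147), and it held without WT stage 0 library 1 or 3 or Bcl6KO stage 0 library 1, where the value was 6.50. Without Sp100 in the library sizes it was 4.88 (edgeR adjusted p = 0.0485).

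Over both genotypes Il4 rose by 3.23 (SE 0.65, 95% interval 1.84 to 4.63, edgeR Benjamini-Hochberg adjusted p = 0.0174). The call was lost without WT stage 1 library 1 (3.25, edgeR adjusted p = 0.0502), WT stage 1 library 3 (3.17, 0.0514) or Bcl6KO stage 1 library 3 (2.93, 0.0545), and the value was 4.05 (0.00545) without Bcl6KO stage 0 library 1. At stage 0 the lowest WT library, at 6.10 CPM, lay above the highest Bcl6KO library, at 3.59 CPM. The difference of -3.45 (SE 0.94, 95% interval -5.47 to -1.43) did not pass (edgeR adjusted p = 0.157). DESeq2 gave -3.47 with a Benjamini-Hochberg adjusted p = 0.0024, and edgeR gave -5.07 with an adjusted p = 0.0446 without Bcl6KO stage 0 library 1 and -2.65 (0.3) without WT stage 0 library 1. At stage 1 the difference was -0.15 (95% interval -1.94 to 1.64, edgeR adjusted p = 1), and its sign turned without Bcl6KO stage 1 library 1 or 2. The genotype difference at stage 1 exceeded that at stage 0 by 3.30 (SE 1.23, edgeR adjusted p = 0.562), which did not pass.

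Il13, whose product shares a receptor chain with interleukin 4, was counted in WT stage 0 at 6.16, 13.2 and 0 CPM (6.45 ± 6.60, SD, n = 3) and in WT stage 1 at 52.8, 24.9 and 30.0 CPM (35.9 ± 14.9). In Bcl6KO stage 0 it was counted at 0.998, 0 and 0.394 CPM (0.464 ± 0.503), from 5, 0 and 2 counts, and in Bcl6KO stage 1 at 87.8, 53.9 and 67.7 CPM (69.8 ± 17.1). The Bcl6KO stage 1 libraries lay above all others, the lowest at 53.9 against a highest WT value of 52.8 CPM. The stage difference was 2.47 in WT (5.54-fold, SE 1.17, 95% interval -0.04 to 4.98, edgeR Benjamini-Hochberg adjusted p = 0.604). For Bcl6KO the difference was 7.17 (SE 1.49, 95% interval 3.97 to 10.37, edgeR adjusted p = 0.0489). The fitted size in Bcl6KO rests on 7 counts at stage 0, and the call was lost with only the Bcl6KO libraries in the fit (edgeR adjusted p = 0.117), with the replicate number as a block (0.0878) and without any 1 of 9 libraries (0.0549 to 0.131). It held without WT stage 0 library 2 or 3 or Bcl6KO stage 0 library 1, where the value was 8.32.

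Over both genotypes Il13 rose by 4.82 (SE 0.94, 95% interval 2.80 to 6.84, edgeR Benjamini-Hochberg adjusted p = 0.0159) and passed in all 18 alternatives (adjusted p at most 0.0484). WT stage 0 library 2 was the highest stage 0 library for Il13, and without it the averaged value was 5.34 (edgeR adjusted p = 0.0173) and the WT stage difference 3.50 (0.357), against 1.89 (0.868) without WT stage 0 library 3. Without Bcl6KO stage 0 library 1 the averaged value was 5.40 (edgeR adjusted p = 0.0183). At stage 0 Bcl6KO stood below WT by a log2 difference of -3.74 (SE 1.32, 95% interval -6.58 to -0.89, edgeR adjusted p = 0.230), and the libraries overlapped at 0. Leaving out single libraries gave -4.89 (without Bcl6KO stage 0 library 1) to -2.72 (without WT stage 0 library 2), and DESeq2 gave -3.80 with a Benjamini-Hochberg adjusted p = 0.0258. At stage 1, where the groups did not overlap, Bcl6KO was higher by 0.96 (SE 1.11, 95% interval -1.43 to 3.34, edgeR adjusted p = 1). That interval rests on a spread shared by all 12 libraries, and not on the stage 1 libraries alone. The SD of log2 CPM of Il13 was 2.69 in WT and 0.909 in Bcl6KO at stage 0. At stage 1 it was 0.56 in WT and 0.351 in Bcl6KO. The stage 1 difference passed in no alternative, among them a fit of only these groups. The genotype differences of the stages differed by 4.70 (SE 1.71, edgeR adjusted p = 0.549), which did not pass.

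Plac8 was counted in WT stage 0 at 4.37, 11.2 and 6.30 CPM (7.30 ± 3.53, SD, n = 3) and in WT stage 1 at 42.6, 13.8 and 31.0 CPM (29.2 ± 14.5). In Bcl6KO it was counted at 2.0, 4.36 and 5.91 CPM at stage 0 (4.09 ± 1.97) and at 47.1, 37.8 and 55.9 CPM at stage 1 (46.9 ± 9.07). All stage 1 libraries exceeded all stage 0 libraries, closely so in WT, where stage 1 library 2 stood at 13.8 and stage 0 library 2 at 11.2 CPM. The stage difference was 1.99 in WT (3.98-fold, SE 0.71, 95% interval 0.46 to 3.53, edgeR Benjamini-Hochberg adjusted p = 0.407). The Bcl6KO difference was 3.51 (11.4-fold, SE 0.76, 95% interval 1.88 to 5.15) and just missed the threshold (edgeR adjusted p = 0.0545). Over both genotypes Plac8 rose by 2.75 (SE 0.52, 95% interval 1.64 to 3.87, edgeR adjusted p = 0.0133), a call that was lost without WT stage 1 library 1 (2.57, edgeR adjusted p = 0.0525). Between genotypes the difference was -0.83 at stage 0 (95% interval -2.34 to 0.68, edgeR adjusted p = 0.631) and 0.69 at stage 1 (-0.79 to 2.17, adjusted p = 1).

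Izumo1r, the folate receptor 4 gene, did not share the stage pattern of the other members. It was counted in WT at 189, 288 and 249 CPM at stage 0 (242 ± 49.9, SD, n = 3) and at 254, 383 and 272 CPM at stage 1 (303 ± 69.8). In Bcl6KO it was counted at 377, 705 and 349 CPM at stage 0 (477 ± 198) and at 173, 349.6 and 270.3 CPM at stage 1 (264 ± 88.3). Each Bcl6KO stage 0 library lay above each WT stage 0 library, and all other pairs of groups that were compared overlapped. The stage difference was 0.32 in WT (95% interval -0.41 to 1.06, edgeR Benjamini-Hochberg adjusted p = 0.911) and -0.85 in Bcl6KO (-1.59 to -0.11, adjusted p = 0.232). At stage 0 Bcl6KO was higher by 0.98 (SE 0.35, 95% interval 0.23 to 1.72, edgeR adjusted p = 0.229). Without Bcl6KO stage 0 library 2, the highest for Izumo1r and the one with the fewest genes detected and the largest Sp100 share, that difference was 0.57 (edgeR adjusted p = 0.4). At stage 1 it was -0.20 (95% interval -0.93 to 0.54, edgeR adjusted p = 1). The genotype differences of the stages differed by -1.17 (SE 0.49, edgeR adjusted p = 0.592).

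**Figure D2:**
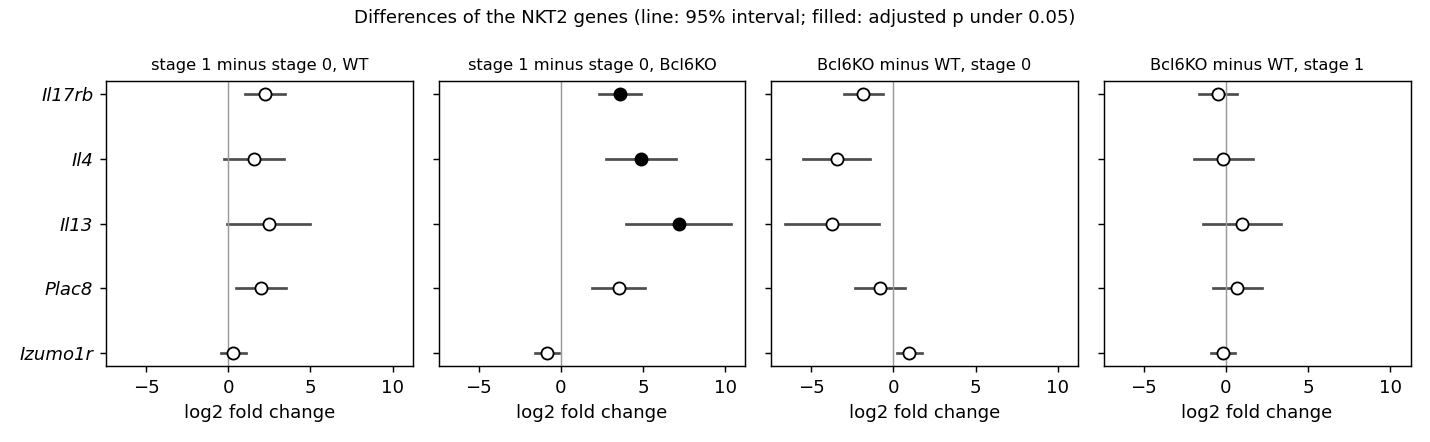
Log2 fold change (horizontal axes) of the 5 genes (vertical axis) between stages in each genotype and between genotypes at each stage. Points are edgeR estimates, lines 95% intervals, and filled points have an adjusted p under 0.05. Filled points occur only for Il17rb, Il4 and Il13 between the Bcl6KO stages, at 3.58, 4.88 and 7.17.

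The members were chosen with earlier results of these data known, so the shares of all genes given beside them are descriptive and not a test. Set against all genes tested, 0 of the 5 members were called between WT stages, where 0.433% of the 15704 genes were called (0.07% higher and 0.363% lower). By unadjusted p under 0.05 edgeR gave 2 members, Il17rb and Plac8, and 8.4% of all genes. DESeq2 called 1 member, Il17rb, and 376 of the 15704 genes. The stage groups of 4 members did not overlap in WT, with stage 1 higher, as for 12.5% of all genes (9.06% in the other direction). In Bcl6KO 3 of 5 were called higher, against 0.42% of all genes in that direction and 0.255% in the other. All 5 had an unadjusted p under 0.05, as did 16.4% of all genes, and 4 did not overlap with stage 1 higher, against 11.8% (5.76% in the other direction). Over both genotypes 4 of 5 were called, all higher, against 3.46% of all genes (1.42% lower), and the 6 stage 1 and 6 stage 0 libraries did not overlap for 3 of them (Il17rb, Il13 and Plac8), against 1.89%. The median log2 fold change of the members was 1.99 between WT stages, 3.58 between Bcl6KO stages and 2.90 over both, beside medians of all tested genes within 0.03 of 0. In Bcl6KO against WT at stage 0, 0 of 5 were called, where DESeq2 called 3 (Il17rb, Il4 and Il13) and 950 of the 15704 genes. For 1 member (Il4) the groups did not overlap in the lower direction, as for 7.95% of all genes, and 1 (Izumo1r) in the higher direction, as for 4.67%. The members' median in that comparison was -1.83 and 4 of 5 had an unadjusted p under 0.05, as did 14.7% of all genes.

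At stage 1, 0 of 5 members and 0% of all genes were called between genotypes by edgeR. In that comparison 404 genes had an unadjusted p under 0.05, none of them a member, and DESeq2 called 20. Of the members only Il13 did not overlap there, as for 5.87% of all genes in the higher direction and 7.44% in the lower. For the interaction of genotype and stage edgeR called 0 genes, while 1221 genes, or 7.78%, had an unadjusted p under 0.05, with 3 members (Il4, Il13 and Izumo1r) among them, and DESeq2 called 130. The larger stage differences of Il17rb, Il4, Il13 and Plac8 in Bcl6KO than in WT are therefore not shown to differ between genotypes. Averaged over the stages, 0 of 5 members and 0.00637% of all genes were called between genotypes, 10.9% of all genes and 2 members (Il17rb and Il4) had an unadjusted p under 0.05, and the 6 libraries of each genotype overlapped for every member, as they did not for 0.618% of all genes.

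Bcl6KO stage 0, the group with the lowest levels of Il17rb, Il4, Il13 and Plac8, was also the group with the fewest genes detected and the largest share of Sp100. With Sp100 left out of the library sizes, the Bcl6KO stage differences were 3.57 for Il17rb, 4.88 for Il4, 7.16 for Il13 and 3.50 for Plac8, and the same 3 members were called. The stage 0 differences between genotypes were then -1.84, -3.45 and -3.74 for Il17rb, Il4 and Il13. TMM scaling already sets aside genes with extreme differences, so leaving out Sp100 could move these values only a little. It does not address the smaller number of detected genes, whose part in these results was not tested.

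Levels of different genes were compared after division by exon length, as CPM per kb. Izumo1r was the highest member in every group, at 104 ± 21.5 CPM per kb in WT stage 0, 131 ± 30.1 in WT stage 1, 205 ± 85.4 in Bcl6KO stage 0 and 114 ± 38.0 in Bcl6KO stage 1 (SD, n = 3). Il17rb followed, at 18.8 ± 10.2, 88.4 ± 21.1, 5.29 ± 3.98 and 63.2 ± 20.9 CPM per kb in the same order. Il4 stood at 13.7 ± 10.7, 41.1 ± 7.31, 1.24 ± 1.47 and 37.0 ± 22.7 CPM per kb. Neighbours in this order did not overlap between Izumo1r and Il17rb in WT stage 0, WT stage 1 and Bcl6KO stage 0, nor between Il17rb and Il4 in WT stage 1. All other neighbours overlapped, and in Bcl6KO stage 1 all 5 genes formed a run of overlapping neighbours. Il13 per kb was below Il4 on average in WT stage 1, at 29.8 ± 12.4, and above it in Bcl6KO stage 1, at 57.9 ± 14.2, within the spread of the libraries in both. Plac8 per kb was the lowest member in WT at both stages and in Bcl6KO stage 1, at 4.58 ± 2.22, 18.3 ± 9.11 and 29.5 ± 5.70, and Il13 was lowest in Bcl6KO stage 0, at 0.385 ± 0.417.

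**Figure D3:**
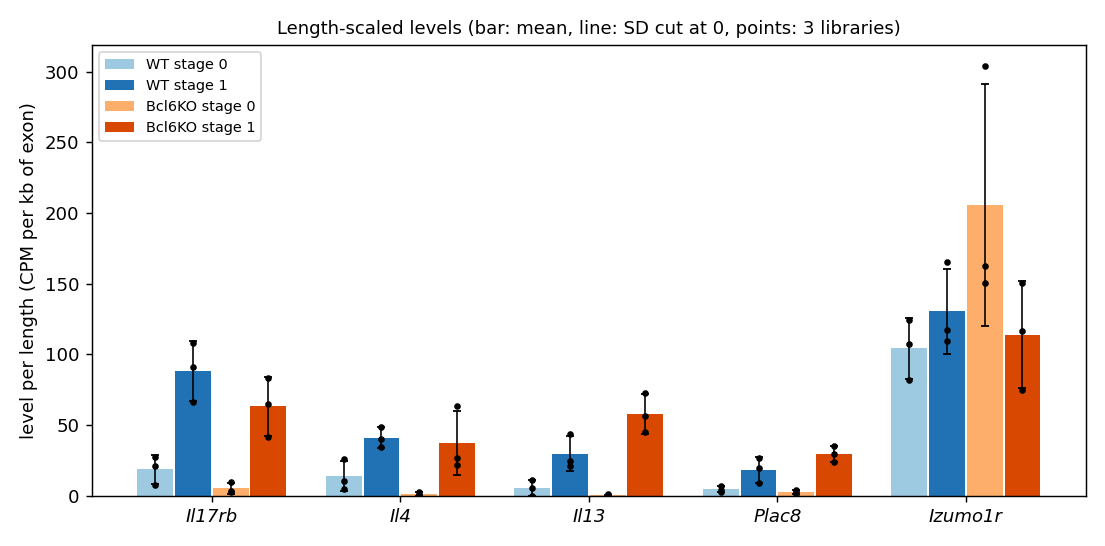
Level per length in CPM per kb of exon (vertical axis) for the 5 genes (horizontal axis) in the 4 groups. Bars are means of 3 libraries, lines the SD (drawn down to 0 at most) and points the libraries. Izumo1r has the highest mean in each group, from 104 to 205 CPM per kb.

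Across groups, the order of Il17rb levels was WT stage 1, Bcl6KO stage 1, WT stage 0 and Bcl6KO stage 0, and only the step between the stages was free of overlap. For Il13 the order was Bcl6KO stage 1, WT stage 1, WT stage 0 and Bcl6KO stage 0, with overlap only between the stage 0 groups. For Plac8 the order was the same as for Il13, and neighbours overlapped within each stage but not between stages. For Il4 only Bcl6KO stage 0 lay apart from its neighbour, and for Izumo1r no neighbours in the order lay apart.

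Other genes of the type 2 pathway were taken from fixed lists. Of 10 ligand genes, which include Il5, Il9, Il10, Il33 and Tslp, none had enough counts to be tested. Tslp had the highest group mean of the list, 3.14 ± 4.96 CPM in Bcl6KO stage 0. Il5 reached at most a group mean of 1.91 CPM, in WT stage 1. Of 11 receptor genes 9 were tested. Between WT stages 1 rose and 1 fell, Il7r, the interleukin 7 receptor, from 59.5 ± 52.5 to 519 ± 37.5 CPM (3.13, edgeR Benjamini-Hochberg adjusted p = 0.032), and Il4ra, the receptor chain for both cytokines, from 113 ± 38.4 to 4.22 ± 0.919 CPM (-4.73, adjusted p = 0.0179). Between Bcl6KO stages 0 of 9 were called, and Il4ra stood at 74.2 ± 47.5 and 14.7 ± 9.76 CPM (-2.34, edgeR adjusted p = 0.128). Il7r stood at 466 ± 307 and 478 ± 63.9 CPM in Bcl6KO (0.04, edgeR adjusted p = 0.984). Il2rg, the common gamma chain, was the most abundant receptor gene in both stage 0 groups and Il7r in both stage 1 groups. Of the exonic bases of Il4ra, 9.51% are shared with an antisense gene, and strand use in counting is not given in the sources used here. In both genotypes the mean level of the receptor gene Il4ra was lower at stage 1, and that of the cytokine gene Il4 higher.

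Of 12 signalling genes, 0 were called between stages in either genotype, with medians of 0.08 in WT and -0.26 in Bcl6KO and Jak1, a cytokine receptor kinase, the most abundant. Averaged over genotypes 1 fell, Stat6, the transcription factor activated by both cytokines (-1.27, SE 0.29, edgeR Benjamini-Hochberg adjusted p = 0.0324), from 153 ± 58.6 to 71.7 ± 8.24 CPM in WT. Of 13 tested transcription factor genes, 2 fell between WT stages and 1 rose and 2 fell between Bcl6KO stages. Maf, a factor known to act on Il4, rose in Bcl6KO from 2.06 ± 1.04 to 95.3 ± 41.4 CPM (5.51, edgeR adjusted p = 0.0496). In WT Maf stood at 35.3 ± 52.4 and 349 ± 160 CPM (3.30, edgeR adjusted p = 0.298). Egr2, an early growth response factor, and Gfi1, a transcriptional repressor, fell in both genotypes, Egr2 by 2.69 and 1.94 and Gfi1 by 2.74 and 3.03 on the log2 scale (edgeR adjusted p between 0.00343 and 0.0432). Averaged over genotypes 3 of 13 rose, Maf, Zbtb16 (2.26, edgeR adjusted p = 0.0133) and Irf4 (3.09, adjusted p = 0.0396), and 3 fell, Egr2, Gfi1 and Nfatc1. Gata3, chosen here after its values were seen because it is the factor best known for type 2 cytokine genes, stood at 257 ± 39.9 and 199 ± 50.7 CPM in WT stages 0 and 1 and at 353 ± 57.3 and 263 ± 51.8 CPM in Bcl6KO. Its stage difference over both genotypes was -0.40 (SE 0.19, edgeR adjusted p = 0.298).

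Of 11 other surface genes linked to NKT2 cells, 1 rose and 2 fell between WT stages and 1 rose between Bcl6KO stages. Icos, a costimulatory receptor, was the riser in both, from 264 ± 136 to 1684 ± 127 CPM in WT and from 293 ± 75.3 to 1065 ± 55.4 CPM in Bcl6KO (2.67 and 1.86, edgeR Benjamini-Hochberg adjusted p = 0.0031 and 0.0278). Slamf6, an adhesion receptor of iNKT selection, and Cd27, a costimulatory receptor, were the WT fallers (-1.99 and -1.86, edgeR adjusted p = 0.00556 and 0.0164). Averaged over genotypes, 2 rose (Icos and Ccr8) and 2 fell (Slamf6 and Cd27). Ccr8, a chemokine receptor, was at 4.41 ± 0.756 and 34.7 ± 23.98 CPM in WT and at 0 in all 3 Bcl6KO stage 0 libraries against 7.78 ± 9.55 CPM at stage 1. No gene of these lists was called between genotypes at either stage.

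**Figure D4:**
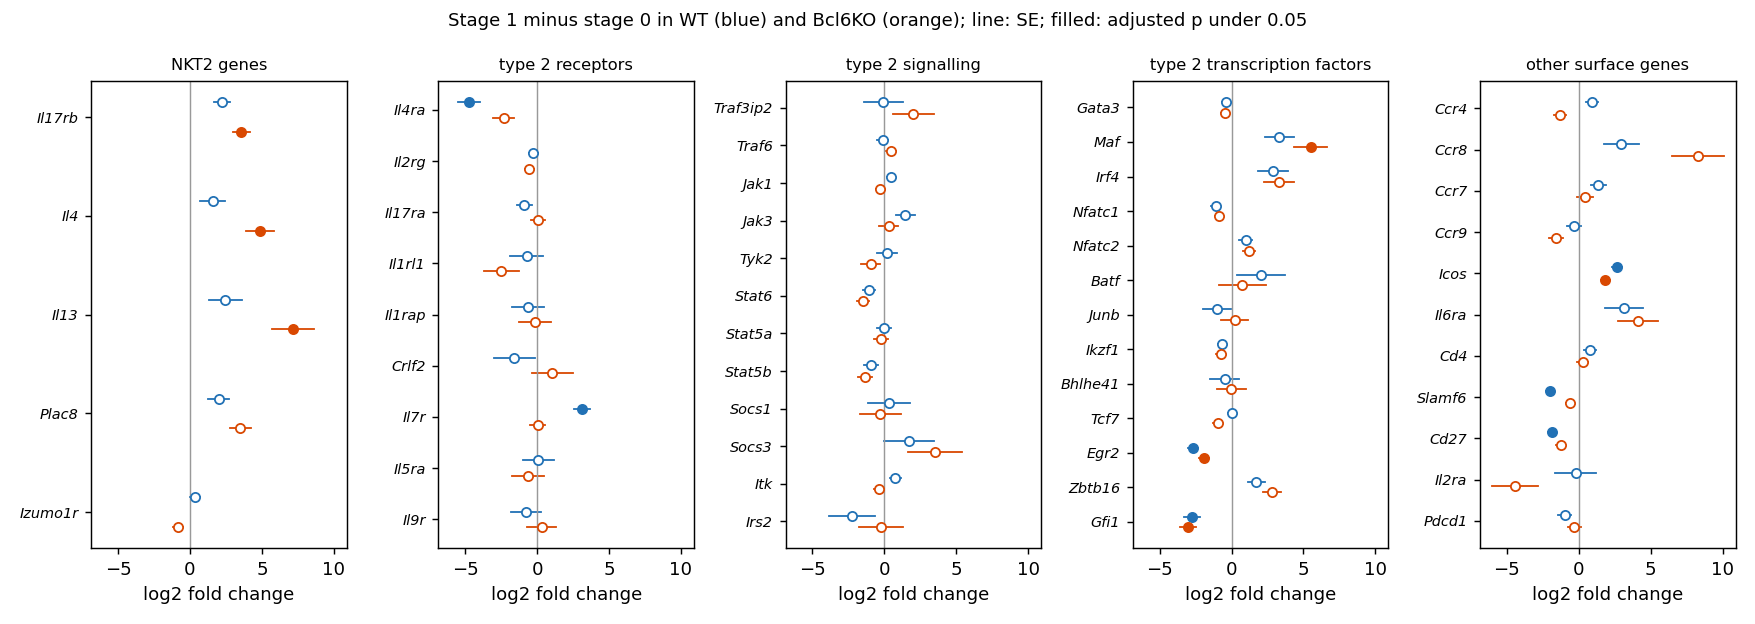
Stage 1 minus stage 0 log2 fold change (horizontal axes) in WT (blue) and Bcl6KO (orange) of the 5 genes and of tested genes of 4 type 2 lists (vertical axes). Lines are 1 SE and filled points have an edgeR adjusted p under 0.05. Among the members only orange points of Il17rb, Il4 and Il13 are filled, and Il4ra lies at -4.73 in WT.

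In the Il4 and Il13 cluster, Rad50, the neighbour that is known to hold the control region of the cluster, was counted at 77.9 ± 20.0 and 157 ± 15.9 CPM in WT stages 0 and 1 and at 109 ± 57.7 and 182 ± 48.3 CPM in Bcl6KO. Its difference over both genotypes was 0.87 (edgeR Benjamini-Hochberg adjusted p = 0.112). None of the 3 tested neighbours (Rad50, Kif3a and Irf1) was called between stages in either genotype. Of the folate receptor family, Folr1 was at 0 in every library and Folr2 in all but 1, so Izumo1r was the only member with testable counts.

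Effector genes of the other iNKT subsets were given beside the members. Of 13 tested NKT1 genes and 9 tested NKT17 genes, 0 were called between stages in WT or in Bcl6KO. Of all genes, 0.433% and 0.675% were called there. Their medians were 1.60 and 4.10 for NKT1 genes and 1.86 and 0.73 for NKT17 genes, against 1.99 and 3.58 for the members. In Bcl6KO stage 0, 9 of the 16 listed NKT1 genes were at 0 in every library, so the 4.10 depends on that floor. Averaged over genotypes 1 NKT1 gene (Fasl) and 2 NKT17 genes (Rora and Nrp1) rose, against 2.04% of all genes.

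Markers of other cells that make or respond to type 2 cytokines were summed per library. Of 11 mast cell and basophil markers, Mcpt4, Mcpt8, Fcer1a and Cma1 were at 0 in every library, and the sums ran from 0.984 to 2.76 CPM in WT stage 0, 3.69 to 7.50 in WT stage 1, 10.8 to 29.5 in Bcl6KO stage 0 and 1.19 to 25.4 in Bcl6KO stage 1. Hdc was the most abundant of them in WT stage 1 and Bcl6KO stage 0, at 4.04 ± 2.86 and 12.9 ± 2.90 CPM. Kit was the most abundant in WT stage 0 and Bcl6KO stage 1, at 0.526 ± 0.745 and 11.2 ± 9.57 CPM. In Bcl6KO stage 0, 8 of the 11 markers were at 0, Kit among them. Of 5 eosinophil markers 4 were at 0 in every library and the sum was at most 0.199 CPM. The 7 markers of innate type 2 lymphocytes summed to between 13.3 and 83.7 CPM in WT stage 0, 201 and 289 in WT stage 1, 58.5 and 95.7 in Bcl6KO stage 0 and 104 and 176 in Bcl6KO stage 1, with Rora, also on the NKT17 list, the most abundant. Il1rl1, the interleukin 33 receptor gene among them, stood at 10.4 ± 11.5, 6.25 ± 4.59, 23.0 ± 25.8 and 4.05 ± 3.33 CPM in the same order. The part of these cells in the stage differences was not tested.

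The sums of 5 gamma-delta T cell markers were also higher at stage 1, with ranges of 20.5 to 1027 CPM in WT stage 0, 1372 to 3637 in WT stage 1, 9.67 to 185 in Bcl6KO stage 0 and 748 to 1044 in Bcl6KO stage 1. A constant gene of the gamma chain was the most abundant of them in all groups but Bcl6KO stage 0, where it was Trdc, the delta constant gene. Trdc stood at 5.12 ± 6.25 and 0.267 ± 0.114 CPM in WT stages 0 and 1 and at 39.6 ± 37.4 and 6.19 ± 9.86 CPM in Bcl6KO. WT stage 0 library 2 stood apart in this list, at 1027 CPM against 138 and 20.5, and it was also the highest WT stage 0 library for Il13 and Plac8. Without it the stage differences over both genotypes were 2.94 for Il17rb, 3.14 for Il4, 5.34 for Il13 and 2.97 for Plac8, and the same 4 members were called. Double-positive thymocyte markers went the other way, with 3 of 8 called lower between WT stages and 4 of 8 between Bcl6KO stages, and their sums ran from 540 to 1630 CPM in WT stage 0 and 202 to 590.1 in WT stage 1. In Bcl6KO they ran from 1327 to 1405 CPM at stage 0 and 446 to 973 at stage 1. Regulatory T cell markers, a population on which folate receptor 4 is known, summed to 503 to 865 CPM in WT stage 0 and 482 to 959.5 in Bcl6KO stage 0, mostly Ikzf2. At stage 1 they summed to 279 to 624 CPM in WT and 297.5 to 427 in Bcl6KO. Foxp3 stood at 14.8 ± 18.4 and 2.85 ± 3.51 CPM in WT stages 0 and 1 and at 1.46 ± 1.75 and 3.39 ± 3.33 CPM in Bcl6KO. The part of these cells in the Izumo1r levels was not tested.

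Genes with the most similar pattern to each member were ranked by Pearson's r of log2 CPM over the 12 libraries, among 10744 genes. These r describe points that share libraries and the difference between stages, and carry no test. For Il17rb they were Klhl5 (0.967), Fam129a (0.966) and Cacna1d (0.965), with Fam129a at 134 ± 93.9 and 765 ± 122 CPM in WT stages 0 and 1 and at 43.4 ± 38.7 and 415 ± 63.3 CPM in Bcl6KO. For Il4 they were St8sia6 (0.971), Klf10 (0.958) and Tmem203 (0.950), and St8sia6 stood at 54.2 ± 39.2, 166 ± 27.2, 4.07 ± 2.88 and 176 ± 45.1 CPM in the order of the groups just given. For Il13 they were Gimap4 (0.972), Akap6 (0.969) and Ifi206 (0.959), and for Plac8 Cmpk2 (0.954), Lgmn (0.948) and Ptprb (0.948). The Izumo1r neighbours Phpt1 (0.892), Oma1 (0.875) and Fem1a (0.869) were less close. Each had its highest mean in Bcl6KO stage 0, as Izumo1r did, a likeness for which they were chosen.

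**Figure D5:**
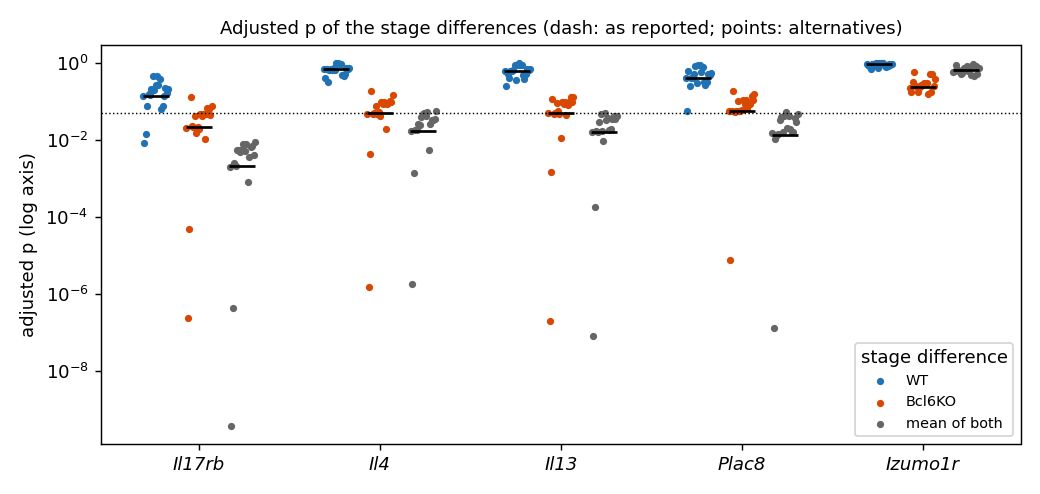
Adjusted p (log axis) of the stage difference of the 5 genes in WT, in Bcl6KO and as the mean of both. Dashes are the reported values, points the alternative settings (19 for each genotype, 18 for the mean) and the dotted line 0.05. For the mean of both, Il17rb and Il13 lie below the line in all 18 alternatives, Plac8 in 17 and Il4 in 15.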

How the data were processed

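RNA of sorted thymic iNKT cells was extracted with a QIAGEN column kit and made into libraries with a NuGEN low-input kit, per the labels' protocols. The authors deposited raw read counts per gene, 1 table per library. The submitters' processing notes name TopHat2 and Bowtie2, with bcl2fastq and DESeq, and the build mm10. Versions, counting program, annotation and use of strand: not given in the sources used here. Among 48672 IDs, 48312 matched a GENCODE symbol, and the rest held 0.195% to 0.366% of a library's counts and stayed in the tests.

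Groups came from the sample titles, 3 libraries each. Tests used edgeR 4.0.16 (R 4.3.3) with TMM scaling, filterByExpr by group, robust quasi-likelihood dispersion over all 12 libraries (8 residual degrees of freedom, common biological coefficient of variation 0.835), two-sided tests and Benjamini-Hochberg adjustment over 15704 genes at 0.05. Each standard error was taken as the absolute log2 fold change over the root of F. Exon lengths came from GENCODE on the same build. Within groups, no pair of libraries agreed within sampling noise (chi-square per gene 27.8 to 166), so all were kept. A count of 0 allows up to 3 counts, 0.569 to 0.615 CPM per library, and without molecular identifiers this covers counting error only.

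The members and gene lists were chosen with earlier results of these data known. All members are named in every comparison. From each pathway list up to 4 called genes with the lowest p are named, or otherwise the most abundant one; from a marker list the most abundant one; and for each member the 3 tested genes with the highest correlation. Genes outside this rule (Il17ra, Il17rc, Il17rd, Il17re, Rad50, Kif3a, Irf1, Folr1, Folr2, Gata3, Nfatc1, Irf4, Il1rl1, Foxp3, Trdc, the listed ligands and mast cell markers at 0) were chosen with their values in view. This procedure was tested on simulated data of 15704 genes, with 50 genes changed at each fold. At 4-fold and 16-fold it found 1 and 16 between Bcl6KO stages and 1 and 13 between WT stages. Between genotypes it found 6 and 22 at stage 0 and 6 and 18 at stage 1. Each gene was simulated with the same spread in all groups. Alternatives were DESeq2 1.42.0 as test or for size factors, no filter, no robust moderation, Sp100 left out of library sizes, only the groups compared, the replicate number as a block, and leaving out each library.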

Additional observations from a re-analysis of the deposited data

How the results depend on the processing

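Il17rb, Il4, Il13 and Plac8 kept their direction between stages in all alternatives, in WT, in Bcl6KO and over both. Between Bcl6KO stages Il17rb passed in 15 of 19 (edgeR adjusted p up to 0.126), Il4 and Il13 in 8 each and Plac8 in 1. Signs turned in comparisons that were not called: Il4 between genotypes at stage 1 was 0.14 without Bcl6KO stage 1 library 1 and 0.038 without library 2 (lowest value without 1 library -0.79), Izumo1r there was 0.053 without Bcl6KO stage 1 library 1 (lowest -0.45), and Plac8 averaged over stages was 0.14 without WT stage 0 library 2, 0.11 without WT stage 1 library 1 and 0.083 without Bcl6KO stage 0 library 1 (lowest -0.26). DESeq2 called more genes than edgeR: 376 against 68 (WT stages), 1309 against 106 (Bcl6KO stages), 950 against 3 (genotypes, stage 0), 20 against 0 (genotypes, stage 1), 1495 against 544 (stages, both genotypes), 450 against 1 (genotypes, both stages) and 130 against 0 (difference of genotype effects). It called Il17rb (adjusted p = 0.00814) between WT stages and Il17rb (0.0306), Il4 (0.0024) and Il13 (0.0258) between genotypes at stage 0. Without the filter, with 30509 genes tested, the edgeR counts were 142, 309, 103, 11, 830, 88 and 7 in that order, and Il17rb passed between WT stages (0.0144). With only the groups compared the count was 3 between Bcl6KO stages and 0 between genotypes at stage 0, where Il13 was removed by the filter and gave no value. Leaving out single libraries gave counts of 20 to 139, 7 to 277, 0 to 133, 0 to 1, 193 to 708, 0 to 62 and 0 to 0 in the same order as for DESeq2. The causes of these shifts were not tested. Whether replicate numbers pair the libraries was not settled. Same-number correlations of deviations were 0.00071 to 0.12 between stages of a genotype and -0.075 to 0.104 between genotypes. Each Bcl6KO stage 0 library correlated best with the stage 1 library of its own number, as did WT stage 0 libraries 2 and 3 but not 1. Between genotypes, not every library correlated best with its own number. With the replicate number as a block the counts were 39 between Bcl6KO stages and 1 between genotypes at stage 0. In the same block fit the Bcl6KO stage differences were 3.62 for Il17rb (edgeR adjusted p = 0.0407), 5.31 for Il4 (0.0763), 7.31 for Il13 (0.0878) and 3.55 for Plac8 (0.0994), and over both genotypes the same 4 members were called. DESeq2 size factors, no robust moderation and leaving Sp100 out of library sizes left every count within 1.5 times. Counts were fewest for Il4 and Il13 in Bcl6KO stage 0, with 23 and 7 in all, although its libraries were the largest, at 5558250 to 8038717 counts.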

Other observations

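Il13 was counted relative to Il4 within each library, which removes differences in library size. In WT stage 1 the libraries held 1.07, 0.592 and 0.500 Il13 counts per Il4 count, and in Bcl6KO stage 1 they held 3.32, 1.66 and 0.874. The Bcl6KO range overlapped the WT range, and the mean log2 ratio was higher in Bcl6KO by 1.31 (two-sided exact permutation test over 20 assignments, p = 0.2, where 3 against 3 libraries cannot go below 0.1). At stage 0 the ratio was 0.196, 1.02 and 0 in WT and 0.278, 0 and 1 in Bcl6KO, the latter from at most 18 Il4 counts per library.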
